A study of Mesocricetus auratus with 36 samples.

Results

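The glucocorticoid receptor, several of its target genes and a group of growth arrest and stress genes were followed through the hibernation season in brain tissue of the golden hamster (Mesocricetus auratus). The group holds 10 genes taken by name: Nr3c1, Fkbp5, Tsc22d3, Zbtb16, Sgk1, Ddit4, Gadd45b, Gadd45g, Gadd45a and Cdkn1a. All 10 were present in each of the 36 count tables, which list 32340 genes, and no library had a count of 0 for any of them. All 10 also passed the filter on low counts, which kept 17926 genes for testing.

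Glucocorticoids are steroid hormones of the adrenal cortex that enter cells and bind the receptor encoded by Nr3c1, which waits in the cytoplasm in a complex with heat shock proteins and co-chaperones. The bound receptor moves into the nucleus and raises transcription of targets such as Fkbp5, Tsc22d3, Zbtb16, Sgk1 and Ddit4. The Gadd45 genes and Cdkn1a are switched on by DNA damage, growth arrest and other stress, in part through p53. Tanycytes are specialised glia of the third ventricle that sit between the cerebrospinal fluid and the hypothalamus.

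The tissue was the ependymal strip along the hypothalamus, cut out by laser capture and labelled as enriched for tanycytes, and its RNA was sequenced in 6 male hamsters in each of 6 groups. Long photoperiod animals had 14 h of light and 22 °C and are labelled 8 months old. The other groups were moved to 10 h of light and 8 °C and were taken after 4 weeks (pre-hibernation, 4 months), or after 8 to 12 weeks with no torpor yet (late pre-hibernation, 6 months). Others were taken after 3 cycles of torpor and arousal, either 13 h into torpor or 23 h into the following warm phase, called interbout euthermia (both 6 months). Refractory animals (8 months, at least 20 weeks of short days) no longer entered torpor. At least 2 weeks had passed since the last bout when they were killed. Every animal carried an implanted body temperature logger and was anaesthetised with isoflurane before death, long photoperiod animals included. Day length and temperature changed together, so they cannot be told apart in comparisons with long photoperiod. Labelled age differed there as well, except for refractory animals, which are also labelled 8 months. The long photoperiod group was taken partly before the change of day length and partly at the end, and which animals were taken when is not stated. Time of day is not stated for any group in the sources used here.

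Library totals ran from 5.16 M to 28.54 M counts, with a median of 22.44 M. In 3 libraries over 5% of counts fell on ribosomal RNA genes (refractory 4, 41.8%, pre-hibernation 5, 9.28%, and interbout 6, 7.21%), while the other 33 were below 1%, so results are repeated with these 3 rRNA-rich libraries left out. All 15 tanycyte markers examined were detected in every library, and so were all 12 markers of ciliated ependymal cells, with summed levels of 2850 to 5323 and 1494 to 3622 CPM. Neuron markers summed to 609 to 1475 CPM and oligodendrocyte markers to 128 to 454 CPM, so other brain cells were present in the strip. Levels are CPM, the usual depth-scaled counts, here on TMM-normalised library sizes, given as mean ± SD with n = 6 animals, and differences are log2 fold changes ± SE from edgeR's quasi-likelihood test over all genes. A gene passed where its Benjamini-Hochberg adjusted p over the 17926 genes was under 0.05. In bulk tissue, more RNA of a gene per cell and more cells of a type that expresses it cannot be told apart.

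On assembly BCM_Maur_2.0 all 10 genes have a protein-coding annotation, and reads on exons were counted. Fkbp5 (4721127 to 4804720, minus strand), Cdkn1a (5388156 to 5395470, plus) and Ddit4 (24388822 to 24390939, plus) lie on 1 contig. Gadd45b (103362601 to 103364631, plus) and Gadd45a (128928164 to 128930450, minus) share another. Nr3c1 spans 115168755 to 115286095 (plus), Tsc22d3 77226183 to 77287713 (minus), Zbtb16 27324962 to 27509088 (minus), Sgk1 24471917 to 24586549 (minus) and Gadd45g 71710342 to 71712120 (plus) of other contigs. Exons of 3 members overlap an unnamed gene on the opposite strand. Counting did not use the strand, so their reads cannot be told apart. The neighbour held 1031 counts against 6753 for Fkbp5, 212 against 4530 for Gadd45a and 26 against 59466 for Nr3c1.

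Per kilobase of exon, Tsc22d3 and Ddit4 were the most abundant members, with means over the 36 libraries of 68.0 and 67.3 CPM per kb. Cdkn1a (14.6), Gadd45g (13.3) and Nr3c1 (10.6 CPM per kb) formed the middle of the range. Gadd45a (4.60), Gadd45b (3.79), Sgk1 (3.18), Zbtb16 (2.40) and Fkbp5 (2.18 CPM per kb) were lowest. The spread over animals was narrowest for the receptor, whose level lay between 63.3 and 102 CPM in all libraries, and widest for Gadd45g, at 3.37 to 48.0 CPM.

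**Figure D1:**
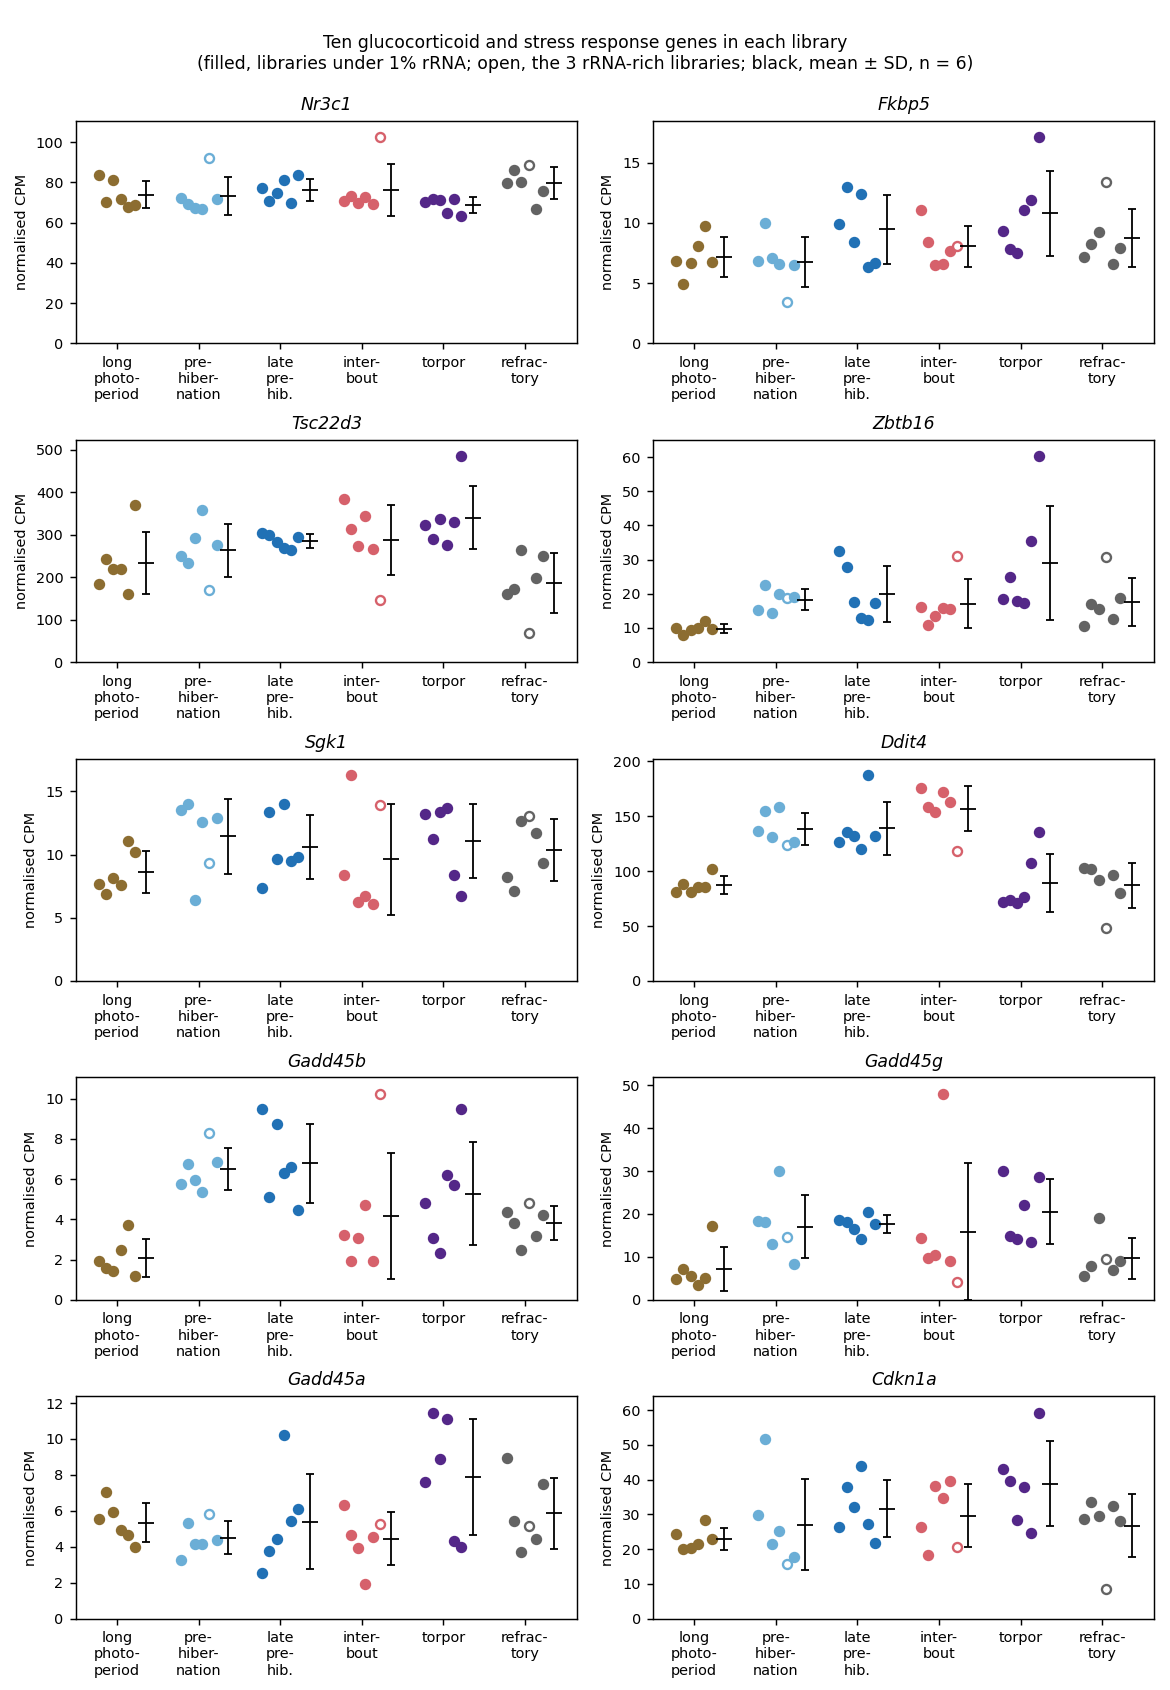
Normalised CPM of each gene (vertical axes, from 0) in every library, by group in seasonal order, with black bars for mean ± SD (n = 6, cut off at 0 for Gadd45g in interbout euthermia) and open circles for the 3 rRNA-rich libraries. Ddit4 was high in the pre-hibernation groups and in interbout euthermia, at group means of 139 to 157 CPM, and stood at 87.1 to 89.4 CPM in the other 3 groups.

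Over the season, 3 of the 10 genes differed among the 6 groups: Ddit4 (adjusted p = 2.24e-05), Gadd45b (adjusted p = 0.00344) and Zbtb16 (adjusted p = 0.00472). Of all genes tested, 14.6% passed this test. Gadd45g (adjusted p = 0.0513) and Tsc22d3 (adjusted p = 0.0691) lay just outside, and Nr3c1, Fkbp5, Sgk1, Gadd45a and Cdkn1a had adjusted p of 0.161 to 0.687. Without the rRNA-rich libraries 5 of 10 passed, the same 3 and also Tsc22d3 (adjusted p = 0.0119) and Gadd45g (adjusted p = 0.0338), where 27.7% of all genes passed. Each of the 3 first genes passed in all 36 fits that left out 1 library.

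To follow the shift from summer to winter conditions, every later stage was compared with long photoperiod. After 4 weeks of short days and cold, 2 of 10 members passed (Ddit4 and Gadd45b), both higher, where 2.29% of all genes passed in either direction. In late pre-hibernation 3 passed, all higher (Ddit4, Gadd45b and Zbtb16), against 3.58% of all genes. In interbout euthermia 1 passed, also higher (Ddit4), against 1.85%. In torpor 3 passed, all higher (Gadd45b, Gadd45g and Zbtb16), against 9.05%, and in the refractory group 0 of 10 passed, against 0.329%. In that last comparison 2 members had an unadjusted p under 0.05, and DESeq2 and limma voom also called 0. These comparisons share the long photoperiod libraries. The median log2 fold change of the 10 genes was 0.33, 0.43, 0.34, 0.57 and 0.25 in the same order of stages, while that of all genes lay between 0.00 and 0.03.

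Without the rRNA-rich libraries the counts against long photoperiod were 3 for the pre-hibernation group (background 6.37%), 4 for late pre-hibernation (9.76%), 1 for interbout euthermia (4.73%), 6 for torpor (21.2%) and 0 for refractory animals (0.531%). The 6 that rose in torpor were then Fkbp5, Tsc22d3, Zbtb16, Gadd45b, Gadd45g and Cdkn1a. None of the rRNA-rich libraries is from torpor or long photoperiod, so that comparison held the same animals in both fits. The levels of the later groups lay above all 6 long photoperiod libraries for Ddit4, Gadd45b and Zbtb16 in pre-hibernation and again in late pre-hibernation, where 2.15% and 2.8% of all genes did so. In interbout euthermia Ddit4 did (1.45% of all genes). With long photoperiod 4 to 6 alone as the comparison group, all of these calls were lost except that of Zbtb16 in torpor, though each log2 fold change stayed positive. With long photoperiod 1 to 3 alone, Ddit4 in both pre-hibernation groups and Zbtb16 in late pre-hibernation were lost. Both settings use 3 libraries in place of 6.

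Among the stages after long photoperiod, members that changed were Ddit4 and, in refractory against torpor, Tsc22d3. Interbout euthermia and pre-hibernation differed in 0 of 10 members in edgeR, with 0 at an unadjusted p under 0.05 (0.00558% of all genes passed). DESeq2 called 0 there and limma voom 1, Gadd45b (adjusted p = 0.0259), which in edgeR without the rRNA-rich libraries was -1.04 ± 0.30 (adjusted p = 0.132). Late pre-hibernation and pre-hibernation differed in 0 of 10 members, and interbout euthermia and late pre-hibernation in 0 of 10, where edgeR called 0% of all genes. At an unadjusted p under 0.05 there was 1 member in each, and limma voom called 0 and 1 members and DESeq2 0 in both. In torpor Ddit4 fell against interbout euthermia (1 of 10, against 4.06% of all genes), and in the refractory group it fell against interbout euthermia too (1 of 10, against 3.5%, with no overlap, as for 0.937% of all genes). Without the rRNA-rich libraries 2 of 10 passed in torpor against interbout euthermia (8.94% of all genes), where Zbtb16 rose, and 2 of 10 in refractory against interbout euthermia (3.02%), where Tsc22d3 fell. In interbout euthermia against late pre-hibernation 1 of 10 then passed, Gadd45b, which fell (0.855% of all genes). In refractory against torpor 1 of 10 passed, Tsc22d3, which fell (15.2% of all genes), and Ddit4 was -0.03 ± 0.15 (adjusted p = 0.922).

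**Figure D2:**
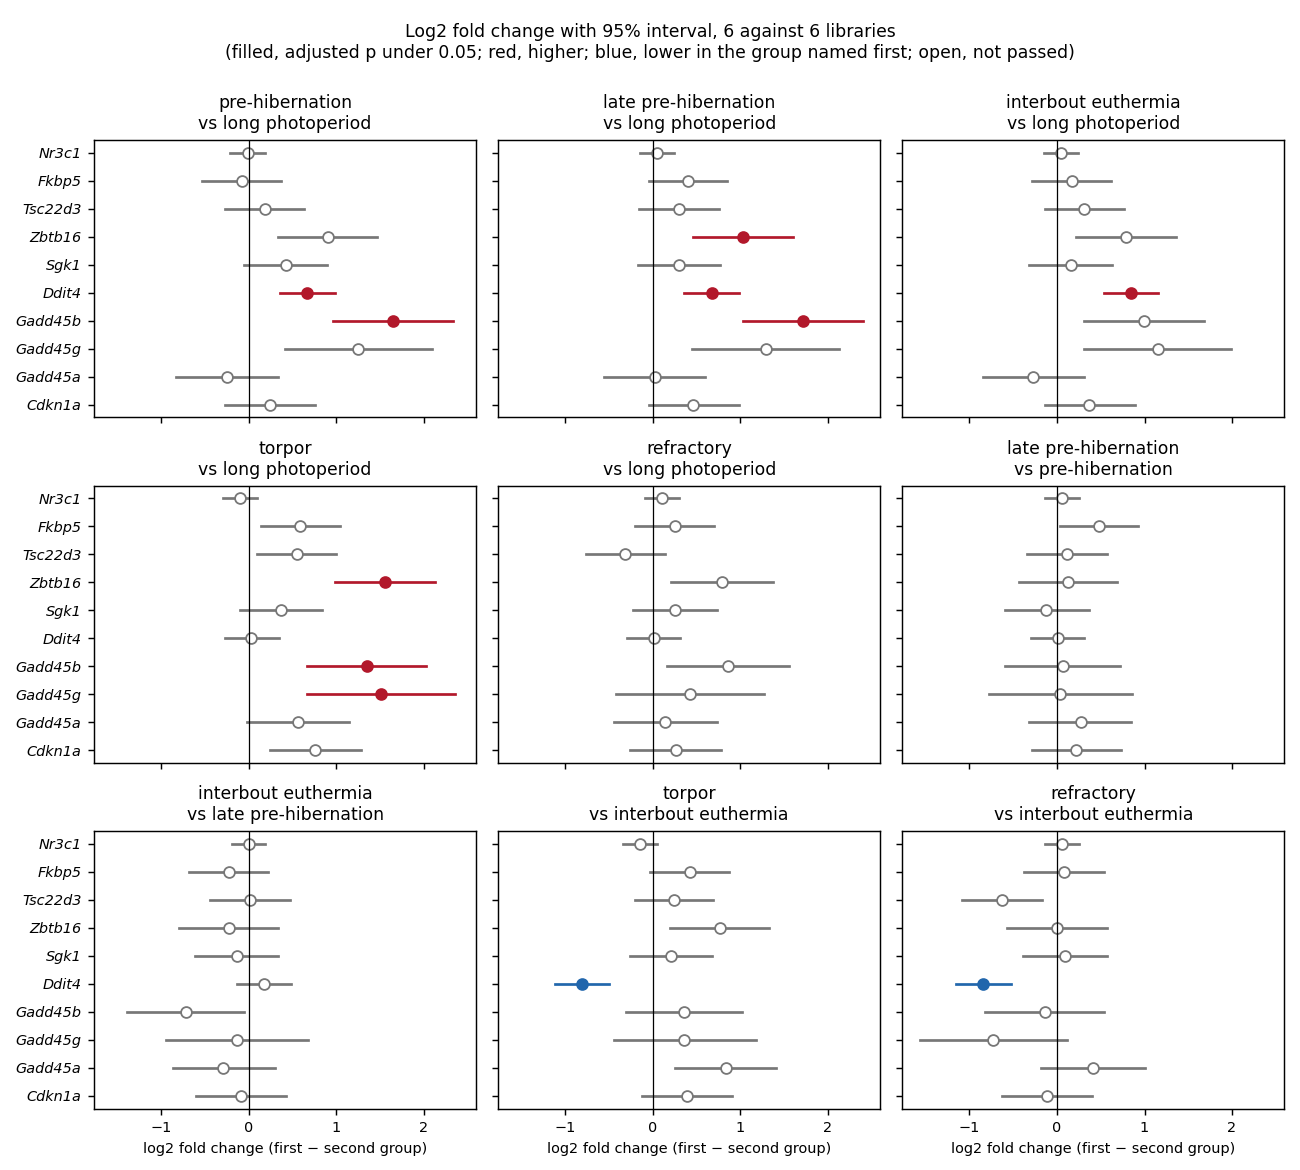
Log2 fold changes (horizontal axes, first minus second group named above each panel) with 95% intervals for the 10 genes in 9 comparisons of 6 against 6 libraries, filled where the adjusted p was under 0.05. Gadd45b had the largest rises before hibernation (1.65 and 1.72) and Ddit4 the only falls that passed (-0.81 and -0.84).

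Nr3c1, the receptor itself, was the steadiest member. Long photoperiod animals averaged 73.9 ± 6.81 CPM, and the pre-hibernation and late pre-hibernation groups 73.3 ± 9.61 and 76.3 ± 5.62 CPM. Interbout animals averaged 76.3 ± 12.9 CPM, torpid animals 68.8 ± 3.79 CPM and refractory animals 79.5 ± 7.94 CPM. All groups overlapped. The log2 fold change was -0.15 ± 0.10 in torpor against interbout euthermia (95% interval -0.34 to 0.05, adjusted p = 0.506) and 0.21 ± 0.10 in refractory against torpor (95% interval 0.01 to 0.40, adjusted p = 0.139). The highest values of pre-hibernation (92.4 CPM) and of interbout euthermia (102 CPM) came from rRNA-rich libraries, and without them those groups spanned 66.8 to 72.3 and 69.2 to 73.3 CPM.

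Fkbp5 encodes a co-chaperone that lowers the receptor's affinity for hormone, and as a receptor target it forms a negative feedback loop. Its level was 7.46 to 17.1 CPM in torpor with a median of 10.2, against 4.91 to 9.78 CPM with a median of 6.79 on long photoperiod. The upper 3 torpor animals stood above every long photoperiod animal and the groups overlapped. The difference of 0.59 ± 0.22 did not pass (adjusted p = 0.0979). Without the rRNA-rich libraries, none of which is from these groups, it was 0.57 ± 0.19 and passed (adjusted p = 0.0333). Torpor against pre-hibernation was 0.67 ± 0.22 (adjusted p = 0.0785). Refractory animals averaged 8.74 ± 2.44 CPM, late pre-hibernation animals 9.45 ± 2.83, interbout animals 8.04 ± 1.69 and pre-hibernation animals 6.73 ± 2.09 CPM.

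Tsc22d3 (also called Gilz) encodes a leucine zipper protein that carries part of the anti-inflammatory action of glucocorticoids. It ranged from 69.2 to 264 CPM in refractory animals (median 184.5) and from 276 to 484 CPM in torpor (median 326). All 6 refractory libraries lay below all 6 torpor libraries. The difference was -0.87 ± 0.22 (1.82-fold lower in refractory, adjusted p = 0.00839), where 15.2% of all genes passed and 2.6% were lower without overlap. It was -0.68 ± 0.17 without the rRNA-rich libraries (adjusted p = 0.00383, 17.1% of all genes) and passed whichever of the 12 libraries was left out, with an adjusted p of up to 0.0343 (without torpor 6), but not when only the 2 groups compared were fitted (adjusted p = 0.0766). Long photoperiod animals averaged 232 ± 73.1 CPM, pre-hibernation animals 263 ± 63.0, late pre-hibernation animals 285 ± 16.7, interbout animals 288 ± 82.0, torpid animals 340 ± 74.7 and refractory animals 185.5 ± 70.4 CPM. Torpor against long photoperiod was 0.55 ± 0.22 (adjusted p = 0.131), and 0.53 ± 0.16 without the rRNA-rich libraries, none of which is from these groups (adjusted p = 0.014). Refractory against interbout euthermia was -0.63 ± 0.22 (adjusted p = 0.109), and -0.60 ± 0.17 without them (adjusted p = 0.0499). The lowest values of the pre-hibernation (170.2 CPM), interbout (146 CPM) and refractory (69.2 CPM) groups all came from rRNA-rich libraries.

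Zbtb16 (also called Plzf) encodes a zinc finger transcription factor and is a known receptor target. Long photoperiod animals had 7.82 to 12.1 CPM with a median of 9.83. Pre-hibernation animals had 14.4 to 22.5 CPM (median 18.9) and late pre-hibernation animals 12.3 to 32.5 CPM (median 17.4). All animals of both pre-hibernation groups lay above all long photoperiod animals. Interbout animals had 10.95 to 31.1 CPM (median 15.65), torpid animals 17.2 to 60.3 CPM (median 21.6) and refractory animals 10.6 to 30.8 CPM (median 16.2). The torpor group was also wholly above long photoperiod, where 3.65% of all genes were, while the interbout and refractory groups overlapped it by 1 animal each.

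Against long photoperiod, Zbtb16 rose 2.95-fold in torpor (1.56 ± 0.28, adjusted p = 0.000257) and 2.04-fold in late pre-hibernation (1.03 ± 0.28, adjusted p = 0.0281). The torpor rise was 1.20 without torpor 6, the animal with the highest level (adjusted p = 0.00214). The late pre-hibernation call was lost in 7 of 12 fits that left out 1 library, and reached an adjusted p of 0.138 without late pre-hibernation 1. Pre-hibernation (0.90 ± 0.28, adjusted p = 0.0893), interbout euthermia (0.79 ± 0.28, adjusted p = 0.174) and the refractory group (0.79 ± 0.28, adjusted p = 0.188) did not pass. The first of these passed without the rRNA-rich libraries (0.88 ± 0.27, adjusted p = 0.0403). The other differences were then smaller, at 0.54 ± 0.27 in interbout euthermia (adjusted p = 0.262) and 0.60 ± 0.27 in the refractory group (adjusted p = 0.491).

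Torpor against interbout euthermia rested on single animals for Zbtb16. The difference was 0.77 ± 0.28 (adjusted p = 0.125), 1.00 without interbout 6, an rRNA-rich library (adjusted p = 0.031), and 0.41 without torpor 6 (adjusted p = 0.502). Refractory against torpor was -0.77 ± 0.28 (adjusted p = 0.058), -0.94 ± 0.27 without the rRNA-rich libraries (adjusted p = 0.0136) and -0.42 without torpor 6 (adjusted p = 0.295).

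Sgk1 encodes a serum and glucocorticoid induced kinase that acts on ion channels and transporters. No comparison passed. Group means ran from 8.60 ± 1.65 CPM on long photoperiod to 11.5 ± 2.97 CPM in pre-hibernation, and every group overlapped every other. The difference of pre-hibernation from long photoperiod was 0.42 ± 0.23 with a 95% interval of -0.06 to 0.89 (adjusted p = 0.491). Torpor against interbout euthermia was 0.21 ± 0.23 with an interval of -0.26 to 0.68 (adjusted p = 0.756).

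Ddit4 (also called Redd1) encodes an inhibitor of mTOR complex signalling that is raised by glucocorticoids, hypoxia and energy stress. Long photoperiod animals had 80.7 to 102 CPM (median 85.8). Pre-hibernation animals had 124 to 158 CPM (median 134) and late pre-hibernation animals 120.3 to 188 CPM (median 132). Interbout euthermia was the group with the highest mean. Its animals had 119 to 175 CPM (median 160.5), while torpid animals had 71.0 to 135 CPM (median 75.1) and refractory animals 48.7 to 103 CPM (median 94.5). Both pre-hibernation groups and the interbout group lay wholly above long photoperiod and wholly above the refractory group.

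The rises of Ddit4 against long photoperiod were 0.67 ± 0.15 in pre-hibernation (adjusted p = 0.0095), 0.67 ± 0.15 in late pre-hibernation (adjusted p = 0.00563) and 0.85 ± 0.15 in interbout euthermia (adjusted p = 0.00127). On average, torpor (0.03 ± 0.15, 95% interval -0.27 to 0.34) and refractory (0.01 ± 0.15, 95% interval -0.30 to 0.31) differed little from it. The torpor mean joined 4 animals below all long photoperiod animals and 2 above all of them (torpor 5 and 6), with none inside the long photoperiod range. In torpor Ddit4 fell by 0.81 ± 0.15 against interbout euthermia, a comparison of animals under the same housing (adjusted p = 0.000791). Of the 6 torpid animals, 5 lay below all interbout animals. The sixth, torpor 6, lay above interbout 6, which is rRNA-rich, and below the other 5. The fall was larger in the 33 other libraries, at -0.90 ± 0.12 (adjusted p = 5.98e-06).

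Torpor was also below the earlier winter stages, by -0.63 ± 0.15 against pre-hibernation (adjusted p = 0.00843, 4.86% of all genes passed) and by -0.64 ± 0.15 against late pre-hibernation (adjusted p = 0.0083, 4.45%). The refractory group was lower than interbout euthermia by -0.84 ± 0.15 (adjusted p = 0.00366), than pre-hibernation by -0.66 ± 0.15 (adjusted p = 0.0112, 5.35% of all genes) and than late pre-hibernation by -0.67 ± 0.15 (adjusted p = 0.0113, 5.39%). All of these passed in each of the 12 fits that left out 1 library and without the rRNA-rich libraries, where 10.0%, 13.4%, 4.02% and 5.62% of all genes passed in the comparisons of torpor and refractory with the pre-hibernation groups. Refractory libraries lay wholly below both pre-hibernation groups, as 1.65% and 1.42% of all genes did. The 3 refractory calls were lost when only the 2 groups compared were fitted (adjusted p = 0.125 against interbout euthermia, 0.129 against pre-hibernation and 0.118 against late pre-hibernation), and the one against pre-hibernation also with neuron and oligodendrocyte covariates. In the order of group means, the step between pre-hibernation and torpor was the only one between neighbours that passed: interbout, late pre-hibernation and pre-hibernation did not differ, nor did torpor, long photoperiod and refractory.

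Gadd45b encodes a small stress protein that binds MAP kinase kinase kinases and takes part in DNA demethylation. It was a low-count gene, with 14 to 233 counts per library. Long photoperiod animals had 1.18 to 3.74 CPM (median 1.78). Pre-hibernation animals had 5.37 to 8.27 CPM (median 6.35) and late pre-hibernation animals 4.47 to 9.49 CPM (median 6.43). Both groups lay wholly above long photoperiod. The next stages spread more widely. Interbout animals had 1.93 to 10.2 CPM (median 3.14), torpid animals 2.33 to 9.48 CPM (median 5.26) and refractory animals 2.49 to 4.80 CPM (median 4.00).

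Gadd45b rose 3.13-fold in pre-hibernation (1.65 ± 0.34, adjusted p = 0.00351), 3.28-fold in late pre-hibernation (1.72 ± 0.34, adjusted p = 0.00132) and 2.55-fold in torpor (1.35 ± 0.34, adjusted p = 0.00736), each against long photoperiod. Interbout euthermia (0.99 ± 0.34, adjusted p = 0.145) and the refractory group (0.86 ± 0.34, adjusted p = 0.249) did not pass. Refractory animals lay wholly below pre-hibernation animals, without passing (-0.79 ± 0.33, adjusted p = 0.159). The interbout value of 10.2 CPM was that of the rRNA-rich library, and the other 5 animals lay between 1.93 and 4.72 CPM. Without the rRNA-rich libraries interbout euthermia was 0.52 ± 0.30 against long photoperiod (adjusted p = 0.344) and fell by 1.20 ± 0.29 against late pre-hibernation (adjusted p = 0.0419), where with all libraries the difference was -0.72 ± 0.33 (adjusted p = 0.751).

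Gadd45g, the family member best known for induction by cytokines, scattered widely on long photoperiod and in interbout euthermia. Torpid animals had 13.5 to 30.1 CPM (median 18.5), against 3.37 to 17.3 CPM (median 5.26) on long photoperiod. The groups overlapped through long photoperiod 6, whose 17.3 CPM compared with at most 7.25 CPM in the other 5. The rise in torpor was 1.51 ± 0.41 (2.86-fold, adjusted p = 0.0155), with adjusted p of up to 0.0474 (without long photoperiod 4) over the 12 fits that left out 1 library. Pre-hibernation (1.25 ± 0.41, adjusted p = 0.12), late pre-hibernation (1.29 ± 0.41, adjusted p = 0.082) and interbout euthermia (1.15 ± 0.41, adjusted p = 0.18) did not pass. They passed without long photoperiod 6, at 1.70, 1.74 and 1.61 (adjusted p = 0.0185, 0.0102 and 0.0337). Interbout 4 held 48.0 CPM against 14.3 CPM or less in the other interbout animals, and without it the interbout difference was 0.41 (adjusted p = 0.813). Refractory animals had 5.47 to 19.0 CPM.

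Gadd45a, the family member most closely tied to p53 and DNA damage, did not pass in any comparison in edgeR. With limma voom it passed over the 6 groups (adjusted p = 0.0271) and in torpor against interbout euthermia (adjusted p = 0.0216) and pre-hibernation (adjusted p = 0.0156). Torpid animals had 3.96 to 11.5 CPM (median 8.26), against 1.90 to 6.32 CPM (median 4.60) in interbout euthermia. Torpor 1 to 4 lay above all interbout animals and torpor 5 and 6 within their range. The difference was 0.83 ± 0.29 (adjusted p = 0.103), and 0.87 ± 0.30 without the rRNA-rich libraries (adjusted p = 0.0695). Torpor against long photoperiod was 0.56 ± 0.28 (adjusted p = 0.258).

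Cdkn1a encodes p21, an inhibitor of cyclin-dependent kinases that halts the cell cycle downstream of p53. It was 24.7 to 59.2 CPM in torpor (median 38.7), against 20.0 to 28.3 CPM on long photoperiod (median 22.2). Of the torpid animals 5 lay above all long photoperiod animals. The difference of 0.76 ± 0.25 did not pass (adjusted p = 0.0545). Without the rRNA-rich libraries, none of which is from these groups, it was 0.74 ± 0.21 and passed (adjusted p = 0.0116). It was 0.59 without torpor 6, the animal with the highest level (adjusted p = 0.199). The refractory mean was 26.8 ± 9.18 CPM and included 8.57 CPM in refractory 4, the rRNA-rich library, while the other 5 refractory animals lay between 28.2 and 33.5 CPM.

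The torpid animals did not form an even group. Torpor 5 and torpor 6 had the highest Ddit4 (108 and 135 CPM, against 71.0 to 76.2 CPM in torpor 1 to 4), the highest Zbtb16 (35.3 and 60.3 CPM, against 17.2 to 24.9 CPM) and the highest Fkbp5 (11.9 and 17.1 CPM, against 7.46 to 11.04 CPM). The same animals had the lowest Gadd45a (4.31 and 3.96 CPM, against 7.62 to 11.5 CPM) and the lowest Sgk1 (8.40 and 6.70 CPM, against 11.2 to 13.7 CPM). Torpor 6 also had the highest Tsc22d3, Gadd45b and Cdkn1a of the torpid animals. Torpor 5 instead had the lowest Cdkn1a (24.7 CPM, against 59.2 CPM in torpor 6) and the lowest Gadd45g (13.5 CPM, against 28.6 CPM). Neither library was rRNA-rich, and no test was made of this division, which was seen in the values.

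Markers of other cell types differed between some of these groups. The summed endothelial markers had a median of 197 CPM in pre-hibernation (168 to 239) and 217 CPM in late pre-hibernation (205 to 255.0). On long photoperiod it was 149 CPM (134 to 206), and 2 of 11 tested endothelial markers rose against it in each pre-hibernation group. The medians in interbout euthermia (183 CPM), torpor (206 CPM) and refractory animals (188 CPM) were also higher. All ranges overlapped that of long photoperiod. The list's mean log2 CPM was 2.30 to 2.93 in pre-hibernation and 2.36 to 3.46 in late pre-hibernation, against 2.235 to 3.03 on long photoperiod. Astrocyte markers summed to 2992 to 3795 CPM in pre-hibernation and 2876 to 4746 CPM in late pre-hibernation, against 3641 to 4796 CPM on long photoperiod, and 1 of 10 fell in each. Pituitary markers summed to 94.2 to 198 CPM in torpor and 109 to 215 CPM in interbout euthermia, against 172 to 2414 CPM on long photoperiod, with 5 of 9 tested falling in each. They summed to 87.1 to 237 CPM in pre-hibernation and 81.2 to 624 CPM in late pre-hibernation, where 2 and 1 of 9 fell. Erythrocyte markers summed to 2.91 to 14.3 CPM in pre-hibernation, 2.60 to 11.5 CPM in late pre-hibernation and 2.67 to 6.02 CPM in torpor, against 12.7 to 20.5 CPM on long photoperiod, and 0, 0 and 1 of 3 tested fell. In refractory animals the pituitary markers summed to 113 to 1846 CPM, and 5 of 9 rose there against interbout euthermia (3 of 9 without the rRNA-rich libraries). Of 13 markers of mural cells and fibroblasts, 3 rose in refractory against interbout animals, and 0 without the rRNA-rich libraries. Of the 15 tanycyte markers, 2 fell in that comparison and 2 in torpor against long photoperiod. The pituitary markers Pitx1, Pou1f1 and Fshb were at 0 in 23, 19 and 18 of the 36 libraries. The part of these cell types in the results for the 10 genes was not tested. In torpor against interbout euthermia, where Ddit4 fell, 0 of the tanycyte, ependymal, neuron, oligodendrocyte, astrocyte, microglia, endothelial, mural or pituitary markers passed and 1 of 3 erythrocyte markers fell. Without the rRNA-rich libraries 2 of 15 tanycyte markers passed there, 1 higher and 1 lower.

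Other genes of the receptor's pathway were described from lists chosen with earlier results of these data known. Of 23 tested genes for steroid receptors, chaperones and steroid enzymes, 2 differed among the 6 groups (Nr3c2 and Abcb1), where 14.6% of all genes did. Nr3c2, the mineralocorticoid receptor, which also binds glucocorticoids, rose against long photoperiod in 3 stages. It averaged 73.6 ± 14.2 CPM in pre-hibernation, 79.9 ± 11.2 in late pre-hibernation and 82.4 ± 19.2 in torpor, against 49.5 ± 4.98 CPM on long photoperiod, with no overlap in any of these. The log2 fold changes were 0.57 ± 0.15 (adjusted p = 0.0329), 0.69 ± 0.15 (adjusted p = 0.00449) and 0.74 ± 0.15 (adjusted p = 0.00119). Abcb1, a drug and steroid exporter of the blood-brain barrier, was 7.75 ± 12.8 CPM in refractory and 1.27 ± 0.807 CPM in interbout animals, a rise of 2.44 ± 0.61 (adjusted p = 0.0234), but 0.90 without the rRNA-rich libraries (adjusted p = 0.253).

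Of 35 other tested glucocorticoid target genes, 12 differed among the 6 groups (34.3%, against 14.6% of all genes), and their directions were mixed. Against long photoperiod 0 rose and 2 fell in pre-hibernation (2.29% of all genes passed), 0 rose and 3 fell in late pre-hibernation (3.58%) and in interbout euthermia (1.85%), and 4 rose and 3 fell in torpor (9.05%). Irs2, an adaptor of the insulin receptor, fell in all 5 later stages, for example to 9.38 ± 1.74 CPM in late pre-hibernation, against 25.0 ± 6.81 CPM on long photoperiod (-1.42 ± 0.18, adjusted p = 3.64e-06). Mt2a, a metal-binding metallothionein, fell to 235.0 ± 34.2 CPM in late pre-hibernation, against 418 ± 42.6 CPM on long photoperiod (-0.83 ± 0.14, adjusted p = 0.000168). Dusp1, a phosphatase that switches off MAP kinases, rose to 160.1 ± 21.2 CPM in torpor, against 78.9 ± 25.5 CPM in interbout euthermia (1.02 ± 0.23, adjusted p = 0.00473). Angptl4, an inhibitor of lipoprotein lipase, was 4.96 ± 1.96 CPM in refractory animals, against 10.6 ± 4.11 CPM in interbout animals (-1.04 ± 0.27, adjusted p = 0.0249). Without the rRNA-rich libraries 7 fell in pre-hibernation (6.37% of all genes passed), and in torpor 8 rose and 5 fell (21.2%), each against long photoperiod.

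For the lists around the stress genes, the shares of all genes to read beside the counts are 9.05% in torpor against long photoperiod and 4.06% in torpor against interbout euthermia. Of 26 tested genes of the integrated stress response and unfolded protein response, 3 rose and 2 fell in torpor against long photoperiod, and 1 rose and 1 fell against interbout euthermia. Ppp1r15a, which brings a phosphatase to a translation initiation factor to end the stress block on translation, rose to 63.2 ± 4.84 CPM in torpor, against 39.1 ± 4.10 CPM in interbout euthermia (0.69 ± 0.11, adjusted p = 6.59e-05). Cebpg, a transcription factor of amino acid stress, fell to 23.1 ± 4.66 CPM in torpor, against 38.5 ± 3.82 CPM in interbout euthermia (-0.74 ± 0.12, adjusted p = 0.000223). Against long photoperiod, Atf3, an early stress transcription factor, rose in torpor by 0.77 ± 0.21 (adjusted p = 0.0165) and Asns, asparagine synthetase, by 0.42 ± 0.14 (adjusted p = 0.0452).

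Of 25 tested p53 pathway and DNA damage genes, 2 rose and 1 fell in torpor against interbout euthermia and against long photoperiod. Btg2, an antiproliferative p53 target, averaged 80.2 ± 14.0 CPM in torpor and 58.7 ± 5.14 CPM in interbout euthermia (0.45 ± 0.10, adjusted p = 0.00551). Xpc, which recognises damaged DNA for repair, averaged 39.2 ± 2.63 and 26.1 ± 1.43 CPM in these groups (0.58 ± 0.13, adjusted p = 0.00445). Tp53inp1, a p53-inducible nuclear protein, averaged 36.8 ± 5.59 and 55.9 ± 5.79 CPM (-0.60 ± 0.13, adjusted p = 0.00331).

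Of 25 tested mTOR and hypoxia genes around Ddit4, 1 rose and 5 fell in torpor against interbout euthermia, and the list's median log2 fold change was -0.13, against 0.01 for all genes. Ankrd37, a target of hypoxia-inducible factor, fell to 7.19 ± 0.829 CPM in torpor, against 18.5 ± 1.99 CPM in interbout euthermia (-1.36 ± 0.15, adjusted p = 9.81e-08). Rps6kb1, the S6 kinase activated by mTOR, fell by 0.49 ± 0.12 (adjusted p = 0.00841). Tsc2, an inhibitor of mTOR complex signalling, rose in torpor against long photoperiod by 0.49 ± 0.11 (adjusted p = 0.00208), and Rps6kb2, a second S6 kinase, fell in late pre-hibernation against long photoperiod by 0.43 ± 0.11 (adjusted p = 0.0181). Leaving out the rRNA-rich libraries gave 4 that rose and 5 that fell in torpor against interbout euthermia, where 8.94% of all genes passed.

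Of 20 tested MAP kinase genes around Gadd45, 0 rose and 2 fell in torpor against interbout euthermia: Map2k3, an activator of p38 (-0.72 ± 0.19, adjusted p = 0.0244), and Mapk14, p38 alpha itself (-0.57 ± 0.15, adjusted p = 0.0161). Map3k5, a stress kinase, was higher in refractory than in interbout animals by 1.43 ± 0.40 (adjusted p = 0.0367), and by 0.60 without the rRNA-rich libraries (adjusted p = 0.182). Mapk11 differed among the 6 groups (adjusted p = 0.0326) without passing in any of the 9 comparisons. Of 20 tested cell cycle genes around Cdkn1a, 1 fell in torpor against interbout euthermia, Cdk6 (14.0 ± 1.65 CPM, against 27.3 ± 11.8 CPM, -0.96 ± 0.20, adjusted p = 0.00257). Ccnd1, cyclin D, fell in torpor against long photoperiod by 1.02 ± 0.19 (adjusted p = 0.000391), and E2f1, a transcription factor of S phase, rose in late pre-hibernation by 1.17 ± 0.30 (adjusted p = 0.0166). Mki67, a proliferation marker, differed among the groups (adjusted p = 0.0107) without passing in the 9 comparisons. Of 12 tested genes around Sgk1, the related kinase Sgk2 was the 1 that fell in torpor against interbout euthermia, to 0.492 ± 0.238 CPM, against 1.88 ± 0.485 CPM (-1.92 ± 0.33, adjusted p = 0.000294).

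**Figure D3:**
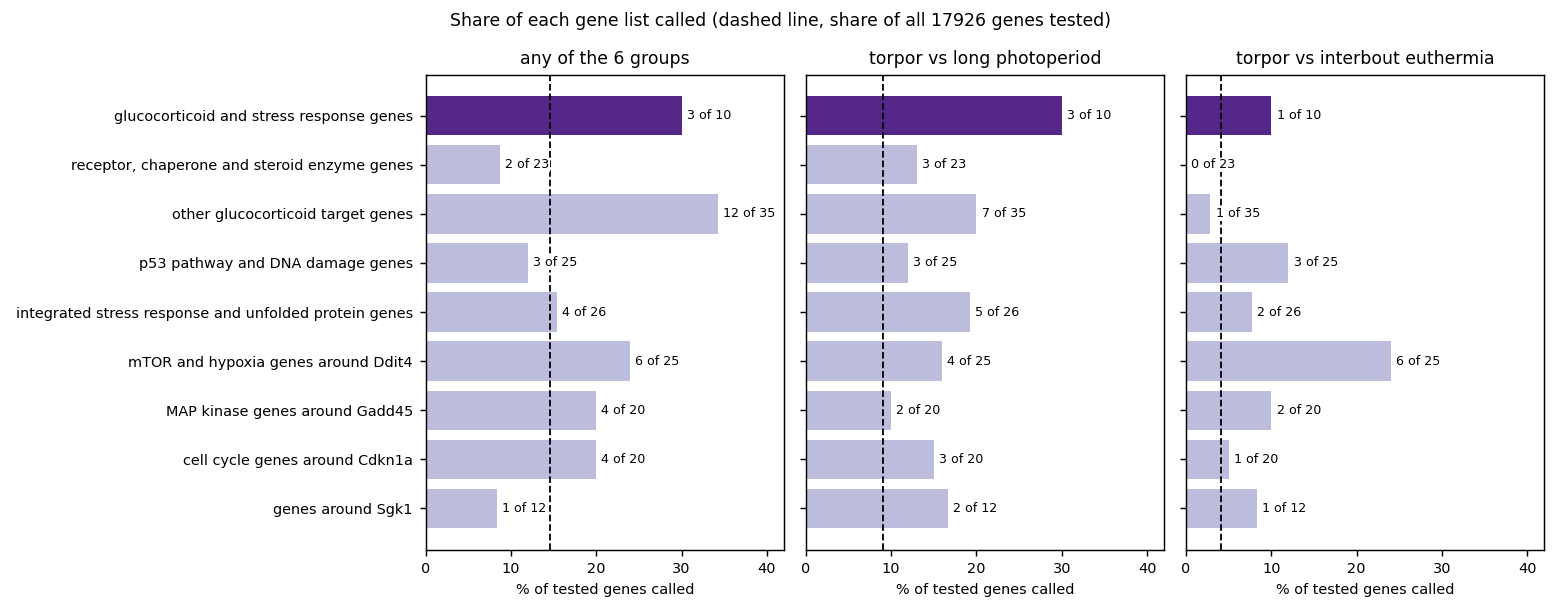
Share of the tested genes of each list that passed (horizontal axes, percent), with the number beside each bar and a dashed line at the share of all genes tested (14.6%, 9.05% and 4.06% from left to right). In torpor against interbout euthermia 6 of 25 mTOR and hypoxia genes passed and 0 of 23 receptor, chaperone and steroid enzyme genes.

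The genes whose profiles were most like those of the 3 members that differed over the season were found by Pearson's r of log2 CPM over the 36 libraries, among 11721 named genes. For Ddit4 these were Csrnp2, a transcription factor (r = 0.817), and Glcci1, named as a glucocorticoid-induced transcript (r = 0.803). Glcci1 averaged 111 CPM on long photoperiod, then 201.5, 265, 216, 136 and 124 CPM in the later stages in order. For Gadd45b they were Insyn1, an inhibitory synapse protein (r = 0.832), and Tcerg1l (r = 0.823), the second at 1.5 CPM on long photoperiod and 17.4, 19.8, 9.12, 20.6 and 3.64 CPM in the later stages in order. For Zbtb16 they were Gpr176, an orphan receptor (r = 0.801), and Tns1, a focal adhesion protein (r = 0.799). The points share libraries, depth and groups, so these values describe likeness within these samples.

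**Figure D4:**
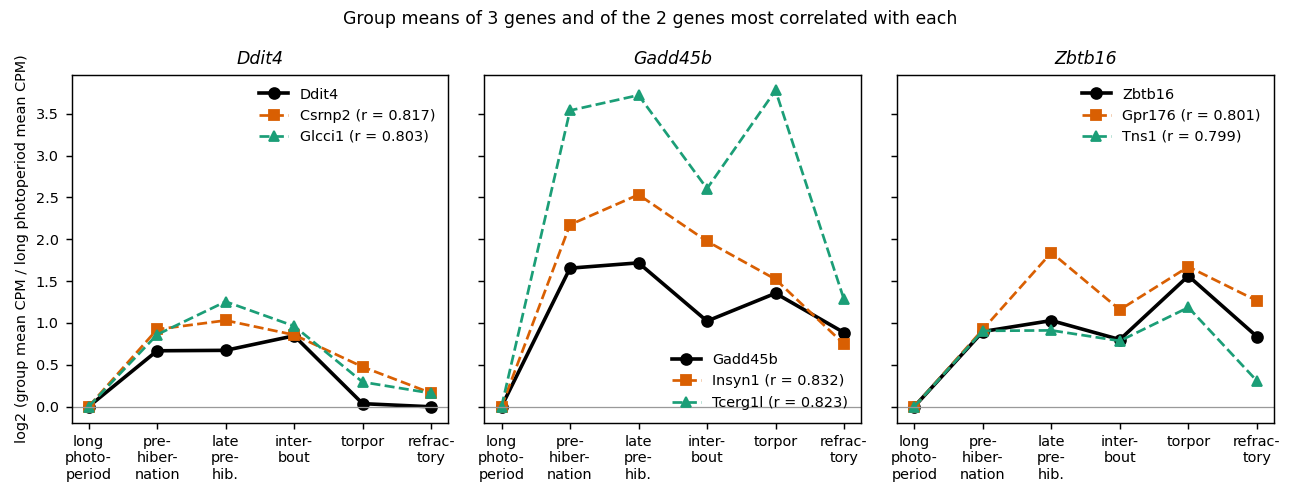
Log2 ratio of each group's mean CPM to the long photoperiod mean (vertical axis) in seasonal order, for Ddit4, Gadd45b and Zbtb16 (black) and the 2 genes with the highest r for each (coloured, r in the legend). Csrnp2 and Glcci1 were, like Ddit4, lower in torpor and refractory than in both pre-hibernation groups and interbout euthermia. Tcerg1l, like Gadd45b, was lower in interbout euthermia than in late pre-hibernation and torpor. Insyn1 was instead higher in interbout euthermia (22.05 CPM) than in torpor (16.1 CPM). With all libraries neither Gadd45b difference passed in edgeR (adjusted p = 0.751 against late pre-hibernation and 0.693 for torpor against interbout euthermia).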

How the data were processed

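The authors deposited a table of raw counts per gene for each of the 36 libraries. Per the file headers, fragments were counted with featureCounts 2.0.1 over RefSeq exons of assembly BCM_Maur_2.0, paired-end and without strand, from alignment files named for STAR, a program with no version or settings recorded there. Per the labels, RNA integrity numbers lay between 7 and 9 and BGI made and sequenced the libraries. Groups came from the sample titles.

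After filterByExpr and TMM scaling, all 36 libraries were fitted together with a robust quasi-likelihood model in edgeR 4.0.16 (R 4.3.3), and p-values were adjusted by Benjamini-Hochberg across 17926 genes. Levels are CPM on TMM-scaled library sizes. A prior count of 2 was added for log2 CPM. The workflow was tested on simulated data. Alternatives were RLE factors, DESeq2 1.42.0, limma 3.58.1 voom, 1 CPM in 6 libraries, no filter, the replicate number as a block, neuron and oligodendrocyte covariates, 2 groups alone, parts of the long photoperiod group, and each library left out. The fit without the 3 rRNA-rich libraries and the alternatives for pairs outside the 9 comparisons were chosen after seeing the data. Figures used matplotlib 3.10.9.

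The genes, the lists and the comparisons were chosen with earlier results of these data known. Named from each other list were up to 4 genes with the smallest p among those that passed the 6-group test, and for each member that passed it the 2 genes of highest r whose mean log2 CPM was 1 or more. The lowest counts in a library were 14 for Gadd45b and 15 for Gadd45a, both in refractory 4, so counting error is largest there.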

Additional observations from a re-analysis of the deposited data

Results flagged for a closer look

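In 11 of the 60 gene and group combinations, 1 animal lay further from the others than Dixon's critical value for 6 samples at the 95% level allows. Chance gives about 1 in 20 for normally distributed values. That rate may not hold here, as CPM was used without a log and the combinations share libraries. Of the 11 outliers, 5 were in rRNA-rich libraries: Nr3c1 in pre-hibernation 5 (92.36 CPM) and interbout 6 (102.4 CPM), Gadd45b in interbout 6 (10.23 CPM), Zbtb16 in interbout 6 (31.08 CPM) and Cdkn1a in refractory 4, the only low one of the 11 (8.565 CPM). The others were Tsc22d3 in torpor 6 (484.3 CPM), Ddit4 in long photoperiod 6 (102.2 CPM) and in late pre-hibernation 5 (187.5 CPM), and Gadd45g in long photoperiod 6 (17.26 CPM), interbout 4 (48.0 CPM) and refractory 3 (18.97 CPM).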

How the results depend on the processing

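The number of the 10 genes that passed moved with some settings, and no fold change that passed turned its direction. Over the 6 groups (3), DESeq2 called 5, limma voom 6, long photoperiod 4 to 6 alone 1, and the fit without the rRNA-rich libraries 5, with 3 to 5 when 1 library was left out. In pre-hibernation against long photoperiod (2), DESeq2 and voom called 4, no filter 1, long photoperiod 1 to 3 alone 1 and 4 to 6 alone 0. In late pre-hibernation (3) these parts gave 1 and 0. In interbout euthermia against long photoperiod (1), voom called 3 and long photoperiod 4 to 6 alone 0, with 1 to 2 when 1 library was left out. In torpor against long photoperiod (3), voom and the fit without the rRNA-rich libraries called 6, and long photoperiod 4 to 6 alone 1. Interbout euthermia against late pre-hibernation (0) gave 1 with voom and 1 without the rRNA-rich libraries. Torpor against interbout euthermia (1) gave 3 with voom, 2 with neuron and oligodendrocyte covariates and 2 without the rRNA-rich libraries. Refractory against interbout euthermia (1) gave 2 with voom, 0 in those groups alone and 2 without the rRNA-rich libraries. Both had 1 to 2 when 1 library was left out. Replicate numbers did not pair the libraries: the median correlation of same-numbered libraries was -0.11 to 0.10, and 4 of 36 matched their own number best. With the replicate block 3 of 10 passed over the 6 groups, as without it. Over all genes the 6-group test called 2625, against 4130 with DESeq2, 7819 with voom, 5943 with no filter and 4952 without the rRNA-rich libraries. Refractory against interbout euthermia called 628, against 219 with the block, 36 with the covariates and 5 in those groups alone. Torpor against interbout euthermia called 728, against 1131 with DESeq2, 1943 with voom and 482 with no filter. Against long photoperiod, pre-hibernation called 411 genes (637 with DESeq2, 2111 with voom, 263 with no filter, 697 in those groups alone, 108 and 111 with each part of the long photoperiod group, 1141 without the rRNA-rich libraries) and late pre-hibernation 642 (3094 with voom, 1338 alone, 270 and 226, 1747). Interbout euthermia called 332 (604 with DESeq2, 1569 with voom, 203 with no filter, 102 and 56, 847), torpor 1622 (4299 with voom, 1066 with no filter, 2934 alone, 836 and 602, 3787) and refractory 59 (165 with RLE factors, 313 with DESeq2, 184 with voom, 9 alone, 23 to 413 with 1 library left out). The causes were not tested.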
